A study of Mus musculus with 12 samples.

Results

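The genes described here encode 9 secreted signalling proteins of the CXC chemokine family: Cxcl1, Cxcl2, Cxcl3, Cxcl9, Cxcl10, Cxcl14, Cxcl16, Ppbp (CXCL7) and Pf4 (CXCL4). They are a fixed list, chosen by name with earlier results of these data known. All 9 were among the 24346 gene symbols listed for each library. Transcript levels came from 12 RNA-seq libraries of myeloid-derived suppressor cells (MDSCs) sorted from Hepa 1-6 tumors, a mouse hepatoma line grown in the liver of C57BL/6J females aged 6 to 8 weeks. M-MDSCs (CD11b+, Ly-6C high, Ly-6G-) and PMN-MDSCs (CD11b+, Ly-6C intermediate, Ly-6G+) came from wild-type mice given vehicle, MS-275 or CXD101. Both agents are inhibitors of histone deacetylases 1 to 3, given for M-MDSC experiments by daily intraperitoneal injection at 5 mg/kg for 10 days. The study's methods describe sequencing of the M-MDSCs only, so the dosing behind the PMN-MDSC libraries is taken from the shared labels. Mice had been selected before dosing for a high share of MDSCs in blood. Each of the 6 groups held 2 libraries, numbered 1 and 2. The study describes the libraries of a group as biological replicates. Whether each came from a single mouse or from pooled mice was not given in the sources used here, so p-values measure the spread between these libraries.

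CXC chemokines carry a pair of conserved cysteines separated by a single residue, and act on G protein-coupled receptors that steer leukocyte migration. Ligands with a Glu-Leu-Arg motif before the first cysteine (the products of Cxcl1, Cxcl2, Cxcl3 and Ppbp) bind CXCR2 and attract neutrophils. CXCL9 and CXCL10 are induced by interferon and bind CXCR3 on activated T cells and natural killer cells. PF4 is stored in platelet granules, CXCL14 attracts monocytes and dendritic cells, and CXCL16 is made as a membrane protein that binds CXCR6.

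Most of these genes are neighbors. On mouse chromosome 5 (GRCm38), Ppbp (90768518-90770063), Pf4 (90772435-90773383), Cxcl3 (90786103-90789600), Cxcl1 (90891241-90893115) and Cxcl2 (90903871-90905938) lay on the plus strand within 137421 bp. Ppbp, Pf4 and Cxcl3 occupied 21083 bp of it. Cxcl9 (92321347-92328079) and Cxcl10 (92346638-92348889) lay farther along the chromosome on the minus strand, Cxcl16 on chromosome 11 (70453983-70459984, minus strand) and Cxcl14 on chromosome 13 (56288643-56296551, minus strand). Cxcl2 and Cxcl3 transcripts shared 80.9% of aligned bases, but only 10 of the 1009 windows of 101 bases in Cxcl2, the read length, also occurred in Cxcl3. Reads from these genes could therefore be told apart over nearly all of their length.

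The RefSeq promoters of the CXCR2 ligand genes and Pf4 are shown because these neighbors differed in level and in response. Each run covers bases -150 to -31 from the annotated start, read along the gene, and capitals mark the kappa B core GGAATTTCC.
Cxcl1, GRCm38.p6 chr5:90891095-90891214, + strand: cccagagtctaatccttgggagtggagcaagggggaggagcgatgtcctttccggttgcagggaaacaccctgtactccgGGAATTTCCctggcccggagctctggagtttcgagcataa
Cxcl2, GRCm38.p6 chr5:90903749-90903868, + strand: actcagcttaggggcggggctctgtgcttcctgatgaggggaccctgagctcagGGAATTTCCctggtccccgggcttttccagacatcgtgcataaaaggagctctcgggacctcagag
Cxcl3, GRCm38.p6 chr5:90785951-90786070, + strand: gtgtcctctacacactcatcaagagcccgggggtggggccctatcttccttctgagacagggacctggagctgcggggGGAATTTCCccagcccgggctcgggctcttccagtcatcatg
Ppbp, GRCm38.p6 chr5:90768368-90768487, + strand: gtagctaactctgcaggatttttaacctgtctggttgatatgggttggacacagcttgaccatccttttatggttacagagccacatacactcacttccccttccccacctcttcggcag
Pf4, GRCm38.p6 chr5:90772285-90772404, + strand: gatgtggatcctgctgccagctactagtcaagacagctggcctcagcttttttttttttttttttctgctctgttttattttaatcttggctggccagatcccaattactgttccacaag
The core GGAATTTCC, searched on both strands of the 250 bases before each start, occurred in Cxcl1, Cxcl2, Cxcl3 and Cxcl10 (there as its reverse complement) and in 0.286% of 32851 mouse promoters. This exact spelling did not occur in these windows of Ppbp, Pf4, Cxcl9 or Cxcl14. Other spellings of kappa B sites were not searched, so their absence is not shown. Cxcl9, Cxcl10 and Cxcl14 held the interferon-type letters GAAANNGAA, which 7.13% of promoters held. Of the 8 members with a promoter entry, only Cxcl10 held the GATA letters AGATAA, as did 9.99% of all promoters. The letters were chosen with these sequences in view, and a match is a description rather than a site of binding.

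Values are FPKM (fragments per kilobase of transcript, scaled to library depth), so levels of different genes are compared per length. Differences are log2 fold changes on the log2(FPKM + 1) scale, with 95% confidence intervals, and they understate changes of low genes. "Rose" or "fell" means an adjusted p under 0.05 and a change above 1.5-fold. The spacing of low values placed the depth at about 8426890 to 10740600 reads for M-MDSCs and 7086140 to 8139840 for PMN-MDSCs. The monocyte receptor Ccr2 was 124 to 147 FPKM in M-MDSCs and 27.5 to 40.7 in PMN-MDSCs. The granulocyte colony-stimulating factor receptor Csf3r was 8.75 to 24.9 and 214 to 339. The monocyte list as a whole was mixed, also under the inhibitors. Ly6c2, a gene for Ly-6C, had means of 1333, 2421 and 2076 FPKM in M-MDSCs under vehicle, MS-275 and CXD101. In PMN-MDSCs these means were 483, 1582 and 1523. In M-MDSCs 1 of 10 tested monocyte markers was called higher and 3 lower under MS-275, and 2 higher and 3 lower under CXD101. In PMN-MDSCs 1 of 11 was called higher and 4 lower under each. With vehicle M-MDSCs as the reference, vehicle PMN-MDSCs had 5 of 11 tested monocyte markers called lower and 3 called higher. Of 16 neutrophil markers 14 were called higher and 2 lower. Of 11 tested macrophage and dendritic cell markers 9 were called higher and 1 lower. Of all 11662 genes tested between the vehicle groups, 2009 (17.2%) were called higher in PMN-MDSCs and 1959 lower. The gene for Ly-6G itself was not analysed here. Beside the results below, the summed FPKM of 16 neutrophil markers, of which S100a8 and S100a9 made up 80.9% to 91.5% in every library, moved with the inhibitors. It was 12694 and 13349 in the vehicle M-MDSC libraries, 25739 and 29973 under MS-275, and 25077 and 26441 under CXD101. In PMN-MDSCs it was 74537 and 100796 under vehicle, 263475 and 286450 under MS-275, and 278221 and 304226 under CXD101. In M-MDSCs 8 of the 16 were called higher and 3 lower (Camp, Ltf and Mmp9) under MS-275, and 9 higher and 1 lower (Mmp9) under CXD101. In PMN-MDSCs 11 were higher and 1 lower (Mmp9) under MS-275, and 12 higher under CXD101. Of all genes tested in M-MDSCs, 10.1% were higher and 7.32% lower under MS-275, and 5.14% and 3% under CXD101. In PMN-MDSCs these shares were 14.6% and 14.2% under MS-275, and 11.9% and 9.54% under CXD101. The part of these shifts in the results was not tested, and in sorted bulk samples a change in the proportion of cells cannot be told apart from a change in RNA per cell.

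**Figure D1:**
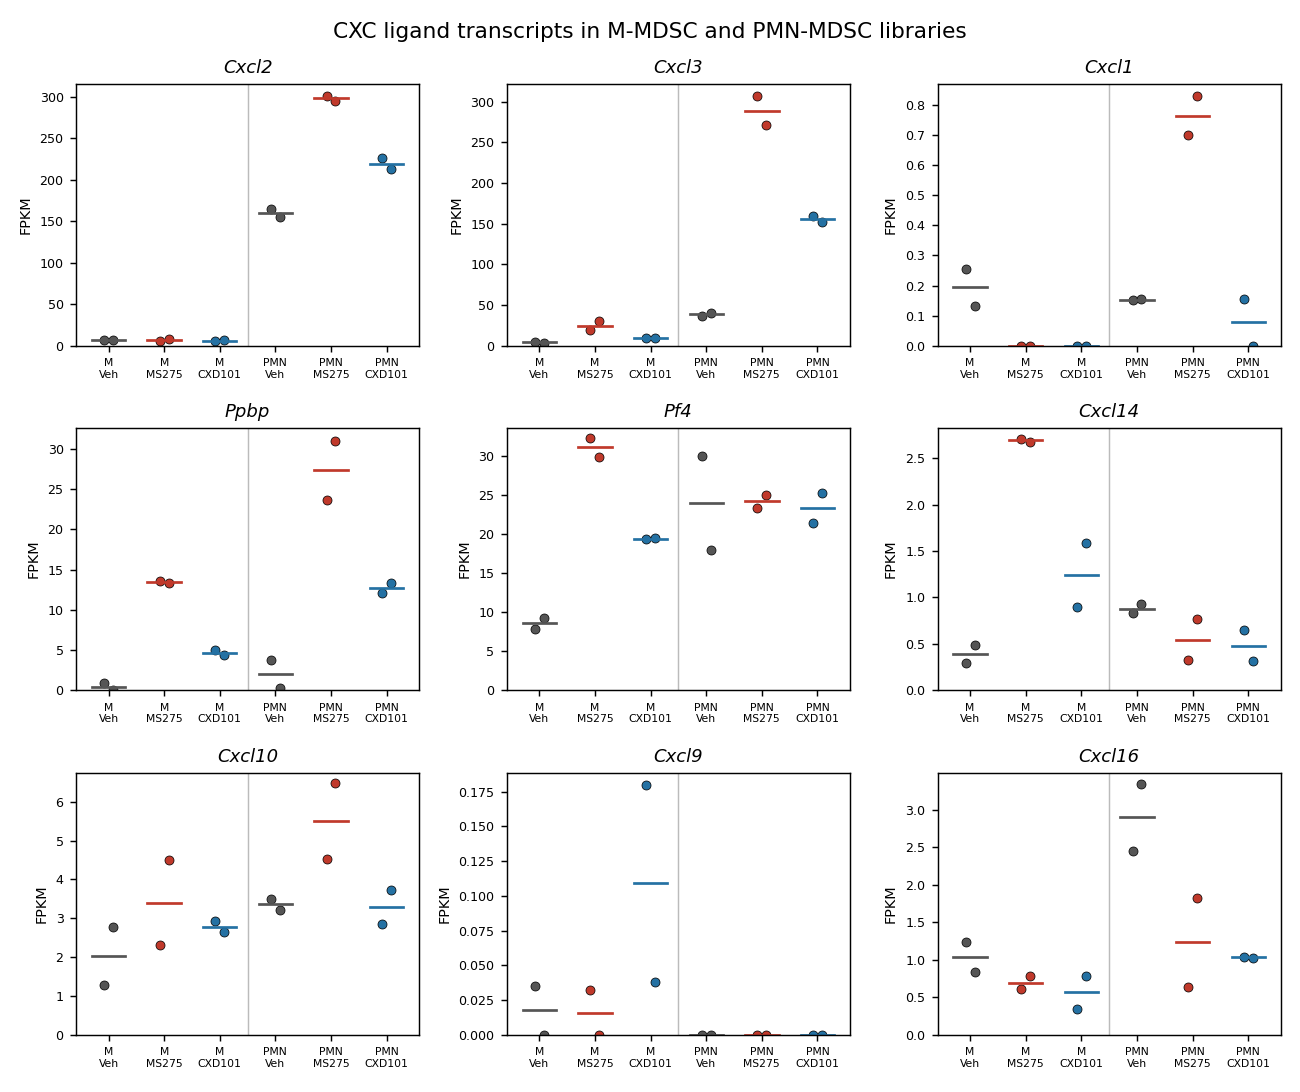
FPKM of the 9 CXC ligand genes in each library; points are the 2 libraries of a group, horizontal lines their mean, and each panel has its own axis from 0. Cxcl2 reached 295 and 301 FPKM in MS-275-treated PMN-MDSCs but stayed between 5.52 and 8.28 FPKM in all 6 M-MDSC libraries.

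In vehicle-treated tumors, PMN-MDSCs held more Cxcl2 and Cxcl3 RNA than M-MDSCs. Cxcl2 was 155 and 165 FPKM in PMN-MDSCs against 7.21 and 7.35 in M-MDSCs, a difference of 4.28 log2 units (3.99 to 4.57, adjusted p = 2.48e-09). Cxcl3 was 36.9 and 40.1 FPKM against 3.16 and 5.02 (log2 difference 2.98, 2.54 to 3.42, adjusted p = 4.36e-07). Neither gene's ranges met. Pf4 was also higher, at 17.96 and 30.0 FPKM against 7.89 and 9.26 (log2 difference 1.34, adjusted p = 8.07e-05). Cxcl16 was higher at 2.45 and 3.34 FPKM against 0.840 and 1.23 (0.94, adjusted p = 0.00644), a call lost without vehicle replicate 2 of M-MDSCs (0.80, adjusted p = 0.05002) or of PMN-MDSCs (0.77, adjusted p = 0.0534). These 4 were the calls among 7 members tested, where 17.2% of all tested genes were higher in PMN-MDSCs. The median log2 difference was 0.94 for the members tested and -0.01 for all genes. Members were chosen with earlier results of these data known, and Cxcl14 passed the filter of this model only through treated M-MDSC libraries. The count and the median are therefore descriptions, and nothing is read from them against all genes.

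Ppbp, Cxcl10 and Cxcl14 were not called between the vehicle groups. Ppbp was 0.263 and 3.71 FPKM in PMN-MDSCs and 0 and 0.867 in M-MDSCs (log2 difference 0.84, -0.22 to 1.89). Without PMN-MDSC vehicle replicate 2 it was 1.79 (adjusted p = 6.54e-04), and without replicate 1 it was -0.11. Cxcl10 was 3.22 and 3.51 FPKM against 1.27 and 2.76 (0.58, adjusted p = 0.0873), and without M-MDSC vehicle replicate 2 it passed (0.94, adjusted p = 0.0185). Cxcl14 was 0.831 and 0.925 against 0.293 and 0.489 FPKM (0.44, adjusted p = 0.0750).

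By mean level, PMN-MDSCs under vehicle ranked Cxcl2 (160 FPKM ± 7.35, SD, n = 2) over Cxcl3 (38.5 ± 2.22) and Pf4 (24.0 ± 8.52), followed by Cxcl10 (3.36 ± 0.204) and Cxcl16 (2.90 ± 0.630). The lowest library of each of the first 3 lay above the highest library of the next gene, whereas Cxcl10 and Cxcl16 overlapped, and Ppbp spread across both. M-MDSCs under vehicle were led by Pf4 (8.58 ± 0.967) and Cxcl2 (7.28 ± 0.0954), followed by Cxcl3 (4.09 ± 1.31) and Cxcl10 (2.02 ± 1.06). There the lowest Pf4 library exceeded the highest Cxcl2 library by under 1 FPKM.

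Among the CXCR2 ligand genes, Cxcl3 rose under both inhibitors in both cell populations. In M-MDSCs it went from 3.16 and 5.02 FPKM under vehicle to 18.7 and 30.3 under MS-275 (log2 fold change 2.31, 1.79 to 2.83, adjusted p = 1.11e-04) and to 9.65 and 9.83 under CXD101 (1.10, 0.58 to 1.62, adjusted p = 0.0103). The 3 groups did not overlap. The CXD101 call was lost without vehicle replicate 2 (0.84, adjusted p = 0.0569), CXD101 replicate 1 (1.11, adjusted p = 0.0527) or CXD101 replicate 2 (1.09, adjusted p = 0.0553), and with no filter (adjusted p = 0.0518). In PMN-MDSCs Cxcl3 went from 36.9 and 40.1 FPKM to 271 and 307 under MS-275 (2.87, 2.69 to 3.06, adjusted p = 7.30e-07) and to 152 and 159 under CXD101 (1.99, 1.80 to 2.17, adjusted p = 4.88e-06). Its level relative to Cxcl2, as a ratio of FPKM, was 0.224 and 0.259 in vehicle PMN-MDSCs and 0.918 and 1.02 under MS-275.

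Cxcl2, the most abundant of the 9 transcripts in PMN-MDSCs under vehicle, responded there and not detectably in M-MDSCs. In PMN-MDSCs it went from 155 and 165 FPKM to 295 and 301 under MS-275, a rise of 0.89 log2 units (0.75 to 1.04, adjusted p = 2.81e-05). CXD101 libraries held 213 and 226 FPKM, above both vehicle libraries, but the change of 0.45 (0.31 to 0.60, adjusted p = 9.43e-04) was below the 1.5-fold limit. In M-MDSCs Cxcl2 was 5.68 and 8.28 FPKM under MS-275 and 5.52 and 6.66 under CXD101, against 7.21 and 7.35 under vehicle. These log2 differences were -0.07 (-0.44 to 0.29) and -0.23 (-0.59 to 0.13).

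Ppbp, whose product is a precursor processed to a neutrophil attractant and is abundant in platelets, rose under both inhibitors in both populations. In M-MDSCs it was listed at 0 and 0.867 FPKM under vehicle, 13.4 and 13.6 under MS-275 and 4.33 and 4.98 under CXD101. The log2 fold changes were 3.41 (2.84 to 3.98, adjusted p = 2.71e-05) and 2.05 (1.48 to 2.62, adjusted p = 9.89e-04). In PMN-MDSCs it went from 0.263 and 3.71 FPKM to 23.7 and 31.1 under MS-275 (3.53, 2.35 to 4.70, adjusted p = 7.97e-04) and to 12.1 and 13.3 under CXD101 (2.49, 1.31 to 3.66, adjusted p = 0.00557). These sizes depended on the vehicle libraries: without vehicle replicate 1 they were 4.48 and 3.44, and without vehicle replicate 2 they were 2.58 and 1.54, all still called. All treated libraries lay above all vehicle libraries of the same population. In both populations Ppbp passed the filter on low values only through treated libraries, so its passing is itself tied to the rise, and the calls against vehicle held with no filter.

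Cxcl1 was near the limit of detection and was not tested. It was 0.133 and 0.255 FPKM in vehicle M-MDSCs and listed at 0 in the 4 treated M-MDSC libraries. In PMN-MDSCs it was 0.151 and 0.155 FPKM under vehicle, 0.700 and 0.830 under MS-275, and 0 and 0.156 under CXD101. The highest of these corresponds to an estimated 6.01 reads. With no filter it was called higher under MS-275 in PMN-MDSCs (log2 fold change 0.61, adjusted p = 0.00461), which at so few reads is given only as a value.

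Pf4, encoding a heparin-binding platelet chemokine that lacks the Glu-Leu-Arg motif, rose in M-MDSCs and did not pass the test in PMN-MDSCs. It went from 7.89 and 9.26 FPKM under vehicle to 29.9 and 32.4 under MS-275 (log2 fold change 1.75, 1.54 to 1.96, adjusted p = 5.50e-06) and 19.4 in both libraries under CXD101 (1.10, 0.89 to 1.30, adjusted p = 1.77e-04). In PMN-MDSCs the vehicle libraries, at 17.96 and 30.0 FPKM, enclosed all 4 treated libraries, which ranged from 21.5 to 25.3. The log2 differences there were 0.06 (-0.42 to 0.53) and 0.00 (-0.47 to 0.48). Only 2371 bp separate the end of Ppbp from the start of Pf4, and their ratio of FPKM (Ppbp to Pf4) went from 0.0147 and 0.124 in vehicle PMN-MDSCs to 1.01 and 1.24 under MS-275.

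Because both genes are abundant in platelets, 7 platelet-defining markers (Itga2b, Gp1ba, Gp1bb, Gp9, Gp6, Treml1 and Tubb1) were read beside them. None exceeded 2.95 FPKM in any library. Their sum was 0.745 and 2.28 FPKM in vehicle M-MDSCs, 3.44 and 4.14 under MS-275 and 1.22 and 2.53 under CXD101. In PMN-MDSCs it was 4.24 and 7.26 under vehicle, 6.68 and 8.19 under MS-275 and 9.01 and 9.62 under CXD101. Gp6, the platelet collagen receptor, was at 0 in both MS-275 M-MDSC libraries. Gp9 rose with MS-275 in M-MDSCs (log2 fold change 1.11), as did Gp9 and Gp1bb in PMN-MDSCs (1.05 and 1.20), and in PMN-MDSCs Tubb1 fell (-0.71). Under CXD101 Gp9 and Gp1bb also rose in PMN-MDSCs (1.20 and 1.36). Gp9 in both populations and Gp1bb in PMN-MDSCs passed the filter on low values only through treated libraries. Tubb1 in PMN-MDSCs passed it only through vehicle libraries. These calls are therefore tied to the filter. Of 17 platelet and megakaryocyte genes, including some that other cells express, 11 were tested in PMN-MDSCs, with 5 higher and 3 lower under MS-275 and 4 higher and 1 lower under CXD101. Thbs1 and Itgb3 were among those higher under both, and Vwf was lower under both. Of all genes tested in PMN-MDSCs, 14.6% were higher and 14.2% lower under MS-275, and 11.9% and 9.54% under CXD101. In M-MDSCs 5 of the platelet genes were tested, with Thbs1 and Gp9 higher under MS-275 and Thbs1 under CXD101. There 10.1% and 5.14% of all genes were higher. In PMN-MDSC vehicle replicate 1 the sum, Pf4 and Ppbp were all higher than in replicate 2. The sum, Pf4 and Ppbp also ordered the replicates alike under MS-275 in each population. They did not do so in vehicle M-MDSCs or under CXD101 in either population. The part of platelets in the Pf4 and Ppbp values was not tested.

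**Figure D2:**
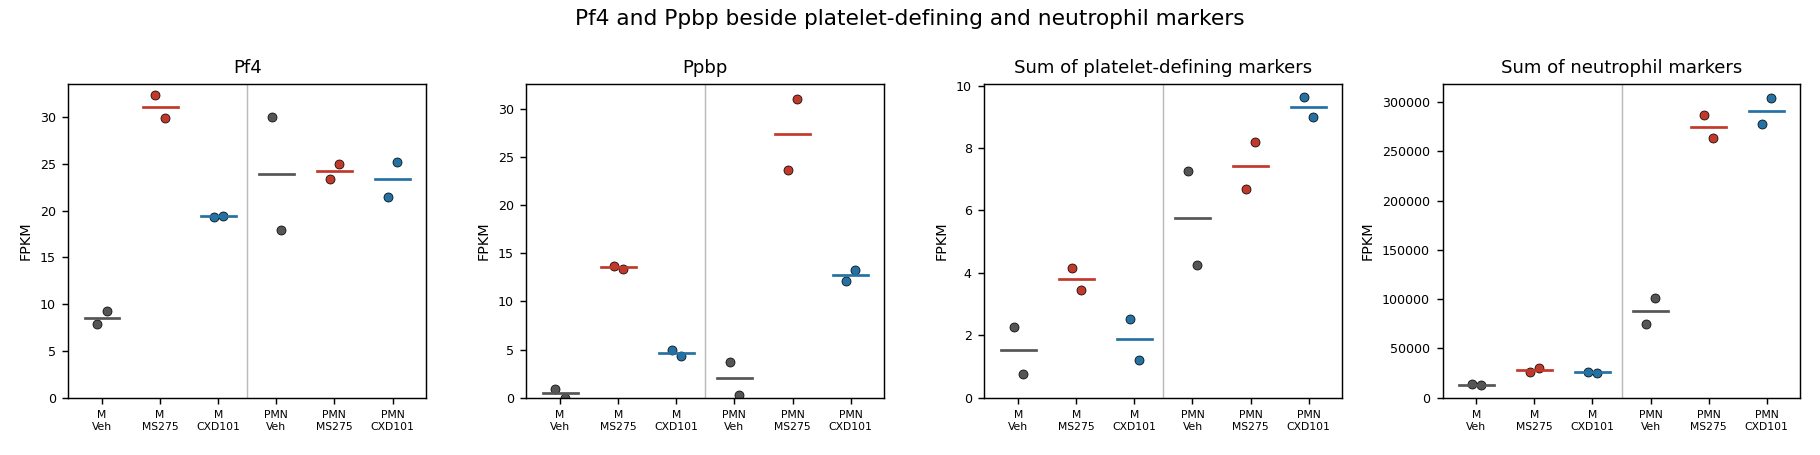
FPKM of Pf4 and Ppbp beside the summed FPKM of 7 platelet-defining markers and of 16 neutrophil markers, per library, with group means as lines; each axis starts at 0. The platelet-defining sum stayed under 10 FPKM in every library, while Pf4 reached 32.4 and Ppbp 31.1 FPKM.

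The interferon-type ligand genes were low. Cxcl9 was listed at 0 in all 6 PMN-MDSC libraries and reached 0.180 FPKM at most in M-MDSCs, an estimated 4.86 reads, so no difference was detectable at this depth. Cxcl10 was 1.27 and 2.76 FPKM under vehicle, 2.30 and 4.49 under MS-275 and 2.63 and 2.92 under CXD101 in M-MDSCs, with overlapping groups and no call (log2 differences 0.54 and 0.37, adjusted p = 0.146 and 0.378). The MS-275 difference passed without vehicle replicate 2 (0.91, adjusted p = 0.0412) or without MS-275 replicate 1 (0.91, adjusted p = 0.0322). In PMN-MDSCs Cxcl10 was 3.22 and 3.51 FPKM under vehicle, 4.51 and 6.49 under MS-275 and 2.86 and 3.71 under CXD101. The MS-275 change of 0.56 (0.14 to 0.98, adjusted p = 0.0309) was below the 1.5-fold limit, and without MS-275 replicate 1 it was 0.78 (adjusted p = 0.0135). Cxcl10 overlaps Art3 on the other strand and Cxcl16 overlaps Zmynd15. The counting strand was not given in the sources used here, but Art3 was at most 0.320 FPKM and Zmynd15 at most 0.400.

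Cxcl14 and Cxcl16 moved in opposite directions, each in the population where the other was not tested. Cxcl14 in M-MDSCs was 0.293 and 0.489 FPKM under vehicle, 2.68 and 2.71 under MS-275 and 0.897 and 1.58 under CXD101. It rose under MS-275 (log2 fold change 1.41, 0.999 to 1.83, adjusted p = 4.47e-04) and under CXD101 (0.67, 0.26 to 1.09, adjusted p = 0.0295). The CXD101 call was lost without vehicle replicate 1 (0.57, adjusted p = 0.144), vehicle replicate 2 (0.78, adjusted p = 0.0600) or CXD101 replicate 2 (0.45, adjusted p = 0.140), and with no filter (adjusted p = 0.0580). Like Ppbp, it passed the filter in M-MDSCs only through treated libraries. In PMN-MDSCs it stayed under 1 FPKM in every library.

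Cxcl16 fell in PMN-MDSCs, from 2.45 and 3.34 FPKM under vehicle to 0.640 and 1.82 under MS-275 (log2 fold change -0.85, -1.45 to -0.25, adjusted p = 0.0255) and 1.03 and 1.04 under CXD101 (-0.93, -1.53 to -0.33, adjusted p = 0.0213). Both treated groups lay below both vehicle libraries. The MS-275 call was lost without vehicle replicate 2 (-0.68, adjusted p = 0.126) or MS-275 replicate 1 (-0.46, adjusted p = 0.120), and with no filter (adjusted p = 0.0609). The CXD101 call was lost without vehicle replicate 2 (-0.76, adjusted p = 0.105), CXD101 replicate 1 (-0.93, adjusted p = 0.0763) or replicate 2 (-0.93, adjusted p = 0.0814), and with no filter (adjusted p = 0.0560). In M-MDSCs Cxcl16 was between 0.346 and 1.23 FPKM and was not tested. Macrophage and dendritic cell markers moved with these PMN-MDSC values. Of 11 tested, 9 were lower and 1 higher under MS-275, and 8 were lower under CXD101. Of all genes there, 14.2% and 9.54% were lower. The summed FPKM of these markers went from 846 and 935 under vehicle to 423 and 454 under MS-275, and 461 and 478 under CXD101. This was not particular to PMN-MDSCs. In M-MDSCs 8 of 11 tested were lower and 0 higher under MS-275, and 5 lower and 1 higher under CXD101. Of all genes in M-MDSCs, 7.32% were lower under MS-275, and 3% lower and 5.14% higher under CXD101. The sum there went from 538 and 546 under vehicle to 350 and 321 under MS-275, and 450 and 465 under CXD101. The part of these markers in the Cxcl16 difference was not tested.

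Counted together, 4 of the 6 members tested in M-MDSCs were called higher under MS-275 and the same 4 under CXD101 (Cxcl3, Cxcl14, Pf4 and Ppbp). Of all genes tested, 10.1% and 5.14% were called higher. Since Cxcl14 and Ppbp passed the filter there only through treated libraries, as Ppbp did in PMN-MDSCs, these counts are descriptions and nothing is read from them against the shares of all genes. In PMN-MDSCs 3 of 6 tested were higher and 1 lower under MS-275, where 14.6% of genes were higher and 14.2% lower. Under CXD101 2 were higher and 1 lower, where 11.9% and 9.54% of genes were. Both inhibitor comparisons in a population share the vehicle libraries.

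**Figure D3:**
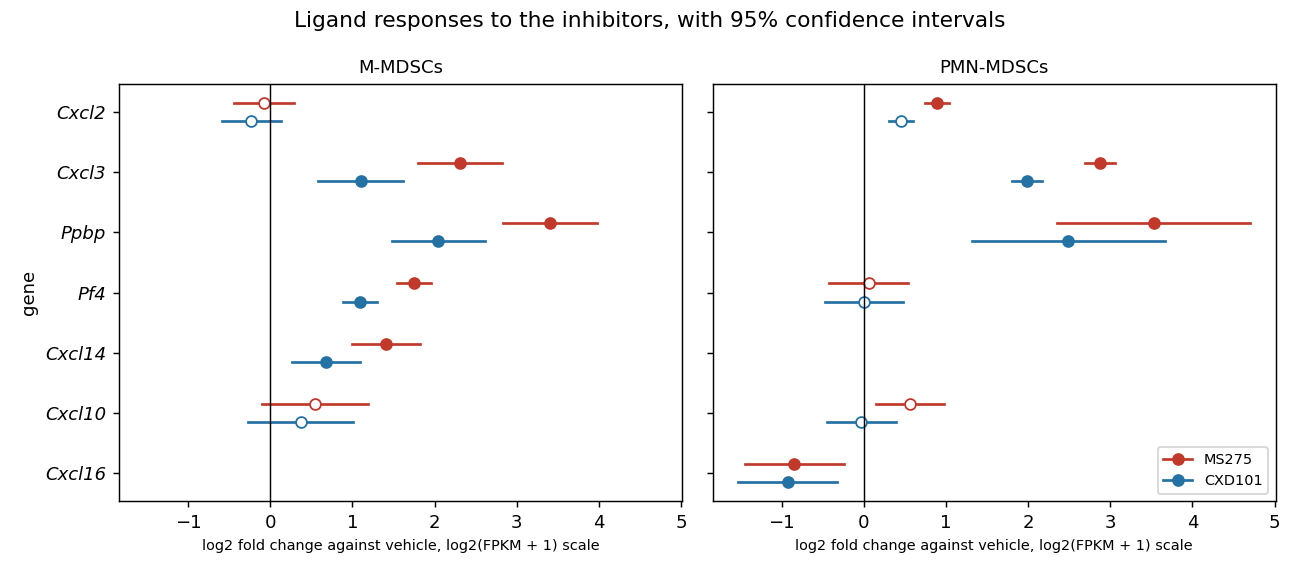
Log2 fold change of each tested ligand gene against vehicle, on the log2(FPKM + 1) scale, with 95% confidence intervals; filled points passed both limits and open points did not. Cxcl3 and Ppbp lie to the right of 0 in both populations, Pf4 at 1.75 and 1.10 in M-MDSCs but at 0.06 and 0.00 in PMN-MDSCs.

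Set against each other, MS-275 gave higher levels than CXD101 for 4 of the 6 members tested in M-MDSCs, where 3.22% of genes were higher. Ppbp and Cxcl14 passed the filter there only through treated libraries, so nothing is read from this count against that share. Pf4 differed by 0.65 log2 units (0.45 to 0.86, adjusted p = 0.00419), and was called without any 1 library. Cxcl3 differed by 1.21 (0.69 to 1.73, adjusted p = 0.0126), Ppbp by 1.36 (0.79 to 1.93, adjusted p = 0.0118) and Cxcl14 by 0.74 (0.33 to 1.15, adjusted p = 0.0323). Without CXD101 replicate 1 the adjusted p of these 3 was 0.0690, 0.0537 and 0.140, and without CXD101 replicate 2 those of Cxcl3 and Ppbp were 0.0607 and 0.0665. Cxcl14 was also lost without MS-275 replicate 1 (adjusted p = 0.133) or 2 (adjusted p = 0.122). With no filter the adjusted p of Cxcl3, Ppbp and Cxcl14 was 0.0552, 0.0525 and 0.0614, and with a pseudocount of 0.1 Ppbp (adjusted p = 0.262) and Cxcl14 (adjusted p = 0.0751) were lost. In PMN-MDSCs only Cxcl3 was called, at 0.89 log2 units (0.70 to 1.07, adjusted p = 0.00754), where 0.465% of genes were higher, and the call was lost without CXD101 replicate 2 (0.85, adjusted p = 0.0832) and with no filter (adjusted p = 0.0678).

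The other PMN-MDSC differences between the inhibitors had wide intervals or small sizes. Cxcl2 was 0.44 higher under MS-275 (0.29 to 0.59, adjusted p = 0.0255), below the 1.5-fold limit. Ppbp was 1.04 higher (-0.13 to 2.21, adjusted p = 0.377), and passed when vehicle replicate 1 (adjusted p = 0.0214) or 2 (adjusted p = 0.0211) was left out of the shared spread. Cxcl10 differed by 0.59 (0.18 to 1.01, adjusted p = 0.188), Pf4 by 0.05 (-0.42 to 0.53) and Cxcl16 by 0.08 (-0.52 to 0.68). A missed threshold does not show that the inhibitors act alike, and the upper bound for Ppbp was a 2.21 log2 difference.

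Whether the response differed between the populations was tested directly, as the PMN-MDSC change minus the M-MDSC change in a model of all 12 libraries. Under MS-275 this difference was positive for Cxcl2 (0.97 log2 units, 0.56 to 1.37, adjusted p = 0.00300) and negative for Cxcl14 (-1.71, -2.32 to -1.10, adjusted p = 0.00128) and Pf4 (-1.69, -2.26 to -1.13, adjusted p = 8.68e-04). Cxcl14 passed the filter of this model only through treated M-MDSC libraries, which ties its call to the filter. With no filter Cxcl14 was also called (adjusted p = 0.00309). Among all genes 8.65% were called positive and 9.48% negative. The response difference was not called for Cxcl3 (0.56, -0.06 to 1.19) or Ppbp (0.12, -1.37 to 1.61). Cxcl3 passed without M-MDSC MS-275 replicate 2 (0.90, adjusted p = 0.0203), and Cxcl16 (-0.59, -1.35 to 0.17) passed without PMN-MDSC MS-275 replicate 2 (-0.98, adjusted p = 0.0324).

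Under CXD101 the difference was positive for Cxcl2 (0.68, 0.28 to 1.09, adjusted p = 0.0216) and Cxcl3 (0.89, 0.26 to 1.51, adjusted p = 0.0433), and negative for Cxcl14 (-1.02, -1.64 to -0.41, adjusted p = 0.0224) and Pf4 (-1.09, -1.66 to -0.53, adjusted p = 0.0118). The Cxcl14 call is tied to the filter here as well, and was also made with no filter (adjusted p = 0.0345). Among all genes 7.31% were called positive and 6.59% negative. Only the Pf4 call held without each library in turn. Cxcl3 was called without M-MDSC vehicle replicate 2 or either M-MDSC MS-275 library and lost without each of the other 9 (adjusted p from 0.0516 to 0.148), and with no filter (adjusted p = 0.0961) or a pseudocount of 0.1 (adjusted p = 0.115). Cxcl2 was lost without vehicle replicate 1 or 2 of M-MDSCs, CXD101 replicate 1 of either population or PMN-MDSC vehicle replicate 2 (adjusted p from 0.0512 to 0.0796). Cxcl14 was lost without CXD101 replicate 2 of either population, M-MDSC vehicle replicate 1 or PMN-MDSC vehicle replicate 2 (adjusted p from 0.0530 to 0.0791). Ppbp (0.44, -1.05 to 1.93) passed without PMN-MDSC vehicle replicate 1 (1.39, adjusted p = 0.0326).

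Of 10 CXC and atypical chemokine receptor genes, only Cxcr2 and Cxcr4 passed the filter, and both rose in all 4 comparisons with vehicle. Cxcr2, the receptor for the Glu-Leu-Arg ligands, was 2.81 and 3.11 FPKM in vehicle M-MDSCs, 19.7 and 20.8 under MS-275 and 7.75 and 8.005 under CXD101. In PMN-MDSCs it was 80.8 and 109 FPKM under vehicle, 294 and 327 under MS-275, and the CXD101 libraries held 245 and 261. Against vehicle it changed by 2.42 and 1.16 in M-MDSCs and 1.71 and 1.42 in PMN-MDSCs, in log2 units with MS-275 first. Cxcr4, the receptor for CXCL12, was 41.3 and 43.0 FPKM in vehicle M-MDSCs, and changed by 1.08, 0.80, 1.19 and 0.96 in the same order. The receptors of the interferon-type ligands and of CXCL16, Cxcr3 and Cxcr6, were at most 1.28 and 0.531 FPKM. Cxcr2 is also one of the neutrophil markers summed above.

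The summed FPKM of Cxcl1, Cxcl2, Cxcl3 and Ppbp was 195 and 206 in vehicle PMN-MDSCs, 598 and 632 under MS-275 and 378 and 397 under CXD101. In M-MDSCs it was 10.5 and 13.5 under vehicle, 38.0 and 52.0 under MS-275 and 20.1 and 20.8 under CXD101. Both populations thus held the highest sum under MS-275, with no overlap between the 3 groups. The 8 other CXC and related ligand genes examined did not pass the filter in any model. Cxcl11 and Cxcl13 were listed at 0 in all 12 libraries, and Cxcl12, the ligand of CXCR4, was at most 0.0290 FPKM.

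**Figure D4:**
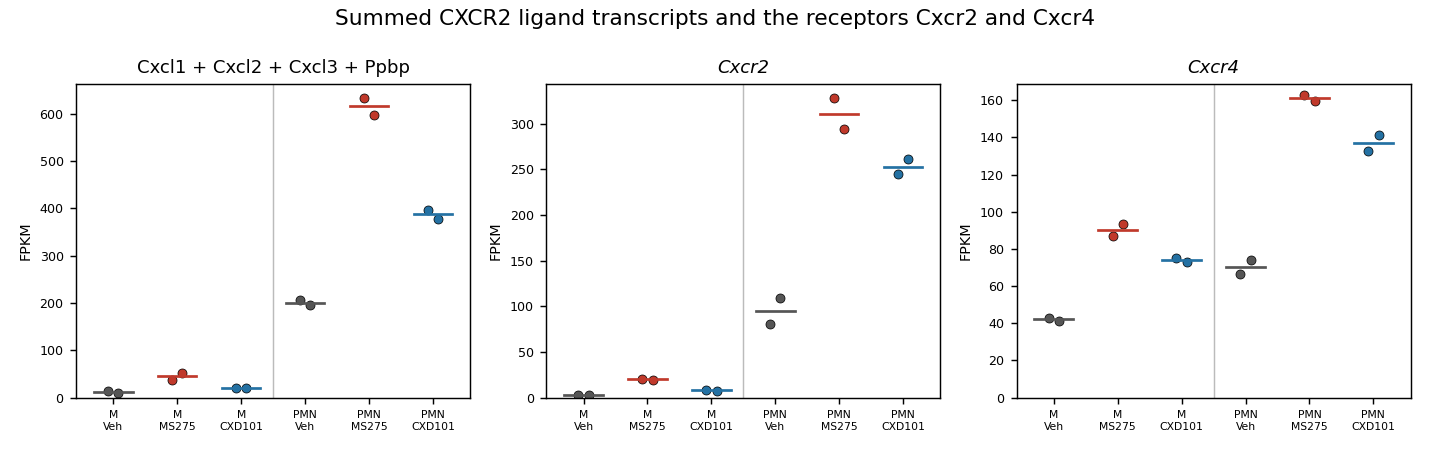
Summed FPKM of Cxcl1, Cxcl2, Cxcl3 and Ppbp, and FPKM of the receptors Cxcr2 and Cxcr4, per library with group means as lines and axes from 0. Within each population the vehicle libraries are lowest and the MS-275 libraries highest in all 3 panels.

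Genes that induce, bind or cleave these ligands were read from fixed lists. Of 23 tested genes of the NF-kB pathway and inflammatory inducers, 5 were lower under MS-275 and 4 under CXD101 in M-MDSCs, where 7.32% and 3% of all genes were. In PMN-MDSCs 2 were higher and 3 lower under MS-275, where 14.6% and 14.2% of all genes were. Under CXD101 1 was higher and 4 lower, where 11.9% and 9.54% of all genes were. These small counts are not read as a result about the pathway. Nfkb2 and Relb, subunits of the non-canonical NF-kB pathway, fell in all 4 comparisons. Relb was 8.41 and 9.41 FPKM in vehicle M-MDSCs and 2.21 and 2.24 under MS-275 (log2 fold change -1.62). In PMN-MDSCs Nfkbiz, which encodes a nuclear regulator of NF-kB target genes, rose from 11.7 and 12.7 FPKM to 24.7 and 28.5 under MS-275 (1.07) and 19.4 and 21.9 under CXD101 (0.72). Il1b, an inducer of CXCR2 ligands, fell under CXD101 in M-MDSCs (-0.69) and was higher under MS-275 than CXD101 in PMN-MDSCs (0.66).

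Of 14 interferon-gamma pathway genes tested in PMN-MDSCs, 3 were higher and 1 lower under MS-275 and 2 were higher under CXD101. Of all genes tested there, 14.6% were higher and 14.2% lower under MS-275 and 11.9% were higher under CXD101, so these small counts are not a result about the pathway. Irf7, an interferon-induced transcription factor, went from 12.9 FPKM in both vehicle libraries to 32.6 and 34.6 under MS-275 (log2 fold change 1.31), while in M-MDSCs 1 gene was higher, Socs1, and 1 lower, Ifngr2. Adam10 and Adam17, which encode proteases that shed membrane CXCL16, were not called in either population. Their list also held Dpp4, Mmp8, Mmp9 and Srgn, and 5 of its 6 genes were tested. In M-MDSCs 2 of them were higher and 1 lower under each inhibitor. Of all genes there, 10.1% were higher and 7.32% lower under MS-275, and 5.14% and 3% under CXD101. In PMN-MDSCs 1 was higher under each inhibitor and 1 lower under MS-275. Mmp9 was the lower gene in each case. Srgn, which encodes the proteoglycan serglycin that binds PF4 in granules, rose in M-MDSCs from 176 and 195 FPKM to 596 and 640 under MS-275 (1.73) and 359 and 419 under CXD101 (1.06). In PMN-MDSCs Srgn was 429 and 457 FPKM under vehicle and 491 to 575 in treated libraries, without a call.

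Genes whose log2(FPKM + 1) followed a ligand most closely over the 12 libraries were listed among about 8420 genes with a mean of 5 FPKM or more. Cxcl2 was matched by Ell (Pearson r = 0.999), Zfp36l1 (0.998) and Hcar2 (0.998), and Cxcl3 by Creg1 (0.996), Spata13 (0.994) and Zfp516 (0.992). Ppbp was matched by Tesc (0.971), Cyp4a12a (0.961) and Hrsp12 (0.960), and Pf4 by Rhbdd2 (0.939), Srgn (0.929) and Plet1 (0.900). The closest genes were A530088E08Rik for Cxcl10 (0.902) and Anks1 for Cxcl16 (0.924). The 12 libraries fall into 2 cell populations and 3 treatments, which these points share.

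Markers of lymphoid and erythroid cells were low beside these results. The summed FPKM of 13 lymphocyte and natural killer cell markers was at most 5.29 and that of 9 erythroid markers at most 1.10. The sum of 11 hepatocyte and tumor markers was 47.6 to 64.7 FPKM in M-MDSCs, and in PMN-MDSCs 157 and 163 under vehicle, 270 and 274 under MS-275, and 234 in both libraries under CXD101. Most of it was Trf (transferrin), which rose under MS-275 in PMN-MDSCs (log2 fold change 0.77). Krt18, a keratin, rose in all 4 comparisons with vehicle, from at most 0.0795 FPKM to 5.54 and 5.73 under MS-275 in M-MDSCs (2.67). It passed the filter in both populations only through treated libraries, which ties these calls to the filter. Ttr, Serpina1a, Krt8 and H19 were at 0 in all 12 libraries, and Alb was at most 0.0528 FPKM. The sum of 10 endothelial and fibroblast markers went from 12.02 and 14.2 FPKM under vehicle to 39.5 and 43.0 under MS-275 in M-MDSCs, and from 36.1 and 41.6 to 94.7 and 99.0 in PMN-MDSCs. Pecam1, which leukocytes also express, rose in all 4 comparisons (log2 fold changes 1.81, 1.46, 1.74 and 1.59). In PMN-MDSCs Acta2 (0.89) rose under MS-275 and Col1a1 (0.73) under CXD101. Pdgfrb (0.86) rose under MS-275 in M-MDSCs, where it passed the filter only through the MS-275 libraries. Dcn, Lum and Col1a2 were at 0 in all 12 libraries. The part of these markers in the results was not tested. Stem and progenitor markers moved with the inhibitors in both populations. In M-MDSCs 6 of 12 tested were higher and 1 lower (Meis1) under each, where 10.1% and 5.14% of all genes were higher. Their sum went from 167 and 168 FPKM under vehicle to 507 and 544 under MS-275. In PMN-MDSCs 8 of 11 were higher and 1 lower (Gata2) under MS-275, and 7 higher under CXD101. There 14.6% and 11.9% of all genes were higher. The sum of these markers went from 224 and 231 FPKM to 530 and 550 under MS-275. Their part in the ligand values was not tested.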

How the data were processed

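RNA-seq of 12 libraries (TruSeq stranded mRNA, 101-base single-end reads, Illumina NovaSeq) was deposited by the authors as 1 FPKM value per gene and library. The submitters' processing notes name TopHat2 2.1.1, Bowtie2 2.2.8, SAMtools 0.1.18 and Cuffdiff 2.2.1 and build mm10. The annotation and counting strand were not given in the sources used here. Values are normalized, not counts, so no count model was used. FPKM were analysed as log2(FPKM + 1) with limma 3.58.1 (R 4.3.3), with an intensity trend and moderated variances. Genes with 1 FPKM or more in at least 2 libraries of a model were tested (11078 in M-MDSCs, 11184 in PMN-MDSCs, 11662 in all). P-values were adjusted by Benjamini-Hochberg over all genes tested, with the study's limits (adjusted p under 0.05, fold change above 1.5). On simulated data with 200 genes changed by 1 log2 unit, 171 were recovered in the M-MDSC comparison of MS-275 with vehicle (10926 genes), with 4 unchanged genes called, 156 in the PMN-MDSC comparison (11062 genes), with 5, and 156 in the response difference under MS-275 (11250 genes), with 6. The simulated libraries held independent normal noise of each gene's own spread, and far fewer genes were changed than were called in the data. Their rates therefore need not hold for the calls made here. Depth was estimated from the spacing of low values over 2522 single-transcript genes. Coordinates come from GENCODE (GRCm38) and promoters from RefSeq (GRCm38.p6), and Cxcl16 had no promoter entry. Members, lists and named genes (the 9 members, called genes of the receptor and pathway lists, and the 3 genes closest to each member) were chosen with earlier results of these data known. Alternatives are given at the end. A marker and a gene close to a member are not reported here.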

Additional observations from a re-analysis of the deposited data

Results flagged for a closer look

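The response of several ligand genes differed between PMN-MDSCs and M-MDSCs by a test of the difference itself (limma, PMN-MDSC log2 change minus M-MDSC change). Under MS-275 it was 0.97 for Cxcl2, -1.71 for Cxcl14 and -1.69 for Pf4. Under CXD101 it was 0.68 for Cxcl2, 0.89 for Cxcl3, -1.02 for Cxcl14 and -1.09 for Pf4. The vehicle libraries are shared by both inhibitors, and the Pf4 vehicle libraries of PMN-MDSCs (17.96 and 30.0 FPKM) spread more widely than the treated ones. For Cxcl14, which stayed below 1 FPKM in PMN-MDSCs, the M-MDSC changes were 1.41 and 0.67 and the PMN-MDSC differences, not tested on their own, were -0.30 and -0.35. Cxcl14 passed the filter over all libraries only through treated M-MDSC libraries, so its calls here are tied to the filter.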

How the results depend on the processing

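The alternatives left 701 of 789 values of single genes with the same direction and call, while 54 lost the call, 11 gained one and 23 changed sign. With a pseudocount of 0.1 the number of members called for MS-275 against CXD101 in M-MDSCs was 2, and with no filter it was 1. With no filter it was 2 for CXD101 against vehicle in M-MDSCs, and 0 by limma for MS-275 against CXD101 in PMN-MDSCs, where all genes gave 4 calls against 90. That last count over all genes was 35 with no intensity trend and 151 with all 12 libraries in one model. Leaving out 1 library gave 2 to 4 members called for CXD101 against vehicle and 1 to 4 for MS-275 against CXD101 in M-MDSCs, 0 to 2 for the latter in PMN-MDSCs, and 1 to 4 for the CXD101 response between populations. Median-of-ratios scaling changed no member's call. Whether libraries of the same replicate number came from the same mice was not given in the sources used here, and the tests treated all libraries as unpaired. Correlations of replicate differences between groups were -0.13 to 0.18, which with so few libraries cannot decide it. With a replicate block the CXD101 response between populations had 3 members called, Cxcl3 being lost (adjusted p = 0.0586). No other member's call changed. With a pseudocount of 0.1 the response difference reversed to -0.071 for Cxcl10 under MS-275 and to -0.92 and -0.49 for Ppbp under MS-275 and CXD101. Leaving out 1 library turned the sign of these uncalled differences, whose log2 values then ran over the ranges given. In M-MDSCs Cxcl2 ran from -0.31 to 0.16 for MS-275 against vehicle and from -0.081 to 0.39 for MS-275 against CXD101, and Cxcl10 from -0.19 to 0.54 for the latter. In PMN-MDSCs Pf4 ran from -0.30 to 0.41 under MS-275, from -0.35 to 0.36 under CXD101 and from -0.060 to 0.17 between the inhibitors, Cxcl10 from -0.18 to 0.11 under CXD101, and Cxcl16 from -0.31 to 0.47 between the inhibitors. Between the populations Ppbp ran from -0.11 to 1.79 under vehicle, from -0.83 to 1.07 in the response to MS-275 and from -0.51 to 1.39 in the response to CXD101, and Cxcl10 from -0.35 to 0.38 in the response to MS-275. The causes were not tested. Having 2 libraries a group, and an estimated depth of single reads for Cxcl1 and Cxcl9 limit what could be detected.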
